A study of Homo sapiens with 16 samples.

Results

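The genes for linker and replacement histone variants, 10 in all, were followed in HCT116 cells, an established human colon cancer line, by sequencing of total RNA. They are H1F0 and H1FX (linker histones), H2AFZ, H2AFV, H2AFX, H2AFY and H2AFJ (H2A variants), and H3F3A, H3F3B and CENPA (H3 variants), taken by symbol from the 63653 genes of the deposited files, and all 10 were found. The 4 groups were cells given 0.5 µM BIX 01294 trihydrochloride hydrate, an inhibitor of the histone methyltransferase G9a, for 72 h (inhibitor), their own control (inhibitor control), cells transfected with 10 nM G9a siRNA using Lipofectamine RNAiMAX and kept for 72 h (siRNA), and the control for that siRNA (siRNA control). The sources used here do not give what either control received, and no group carries another labelled change. Each group holds 2 libraries, each sequenced in 2 runs that were averaged here, so n = 2 throughout. No label states that separate cultures lie behind the libraries of a group, and the spread that a p-value measures here may therefore be technical. Levels are FPKM, the fragment abundance per transcript length and sequencing depth, after scaling between libraries, and a gene is called where its limma p, adjusted by the Benjamini-Hochberg method over all 12846 genes tested, was under 0.05.

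Most histones are made in S phase from clustered genes without introns whose messages end in a stem-loop. Replacement variants are made throughout the cell cycle, mostly from single genes with polyadenylated messages, and are placed by dedicated chaperones and remodellers: H2A.Z at promoters, H3.3 at active genes and at silent repeats, CENP-A at centromeres. Linker histones bind the DNA between nucleosomes, and H1.0, the product of H1F0, is known to accumulate in cells that leave the cycle or differentiate. G9a (EHMT2) and its partner GLP (EHMT1) methylate lysine 9 of histone H3.

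The libraries were checked first. EHMT2 was at 4.68 and 4.54 FPKM in the siRNA libraries, against 15.9 and 17.8 FPKM in the siRNA controls (log2 fold change -1.67 ± 0.09 SE, adjusted p = 0.000268), as the siRNA labels say. With the inhibitor EHMT2 was at 19.7 and 18.9 FPKM, against 24.7 and 20.99 FPKM in the inhibitor controls, and was not called (adjusted p = 0.0827). Both inhibitor control libraries lay apart from the remaining 6. Over the tested genes their log2 levels correlated at r = 0.9925 with each other, between 0.9566 and 0.9735 with the other libraries, and those 6 at 0.9849 to 0.995 among themselves. RNA make-up moved with them. MT-ND3, a mitochondrial message, ranged over 642.1 to 791.1 FPKM in the inhibitor controls, against 59.3 to 142 FPKM in the other 6 libraries, and the nuclear RNA MALAT1 at 188.9 to 230.1 against 55.5 to 78.4 FPKM. RNA28S5, a ribosomal RNA, ran the other way, at 40.8 to 210.3 FPKM against 1045 to 18930 FPKM. RNA18S5, also a ribosomal RNA, was listed at 0 in every library, so these entries are no full measure of ribosomal RNA. Of 8 colon epithelium markers 6 reached 1 FPKM in any library. CDH1 did so only narrowly, at 1.14 to 2.02 FPKM in the inhibitor controls and 0.623 to 1.06 in the other 6 libraries. The 8 markers summed to 687.5 to 705.3 FPKM in the inhibitor libraries and 748.9 to 757.5 in the inhibitor controls. The sum was 632.5 to 647.2 in the siRNA libraries and 633.7 to 633.8 in the siRNA controls. CEACAM5 was at 0 and VIL1 under 1 FPKM throughout. The protocols also mention foreskin fibroblasts. The 8 fibroblast markers summed to 1.98 to 2.42 FPKM in the inhibitor libraries, 2.66 to 3.76 in the inhibitor controls, 1.75 to 2.81 in the siRNA libraries and 2.02 to 2.12 in the siRNA controls, LUM was at 0, and only COL1A1 and PDGFRB reached 1 FPKM in any library. Blood markers summed to at most 0.039 FPKM in any library. The part of these differences in the results was not tested. Since the inhibitor controls differ so broadly, the inhibitor values of each tested member are also given against the siRNA controls.

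The members ranged from traces to some of the more abundant messages. H3F3B and H2AFZ averaged 679.5 and 650.5 FPKM over the 8 libraries, H2AFY 85.8, H2AFV 71.4 and H2AFX 46.1, H3F3A 27.1, CENPA 19.6, H1F0 19.2 and H1FX 18.6 FPKM. H2AFJ averaged 0.273 FPKM, below the minimum mean of 1 FPKM for testing, so 9 of the 10 members were tested. Summed, the members made 1689 and 1774 FPKM in the inhibitor libraries, 1486 and 1519 in the inhibitor controls, 1728 and 1635 in the siRNA libraries and 1619 and 1496 in the siRNA controls. The sum was lowest in the inhibitor controls, although siRNA control replicate 2 lay between them.

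The groups came in one of a few orders. For H1F0, H2AFV, H2AFY, H3F3A and CENPA the mean was highest in the inhibitor controls, followed by the inhibitor, the siRNA control and the siRNA libraries. Among neighbours in that order, the inhibitor and siRNA control libraries overlapped for H1F0, H2AFY, H3F3A and CENPA, and the siRNA control and siRNA libraries for CENPA, whereas no neighbours overlapped for H2AFV. H2AFZ was highest with the siRNA and H3F3B with the inhibitor, and both were lowest in the inhibitor controls. Between the inhibitor and siRNA libraries H2AFZ overlapped and H3F3B did not. H1FX and H2AFX were highest in the siRNA controls and lowest with the siRNA, and the inhibitor controls overlapped the siRNA libraries for H2AFX and for H1FX.

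**Figure D1:**
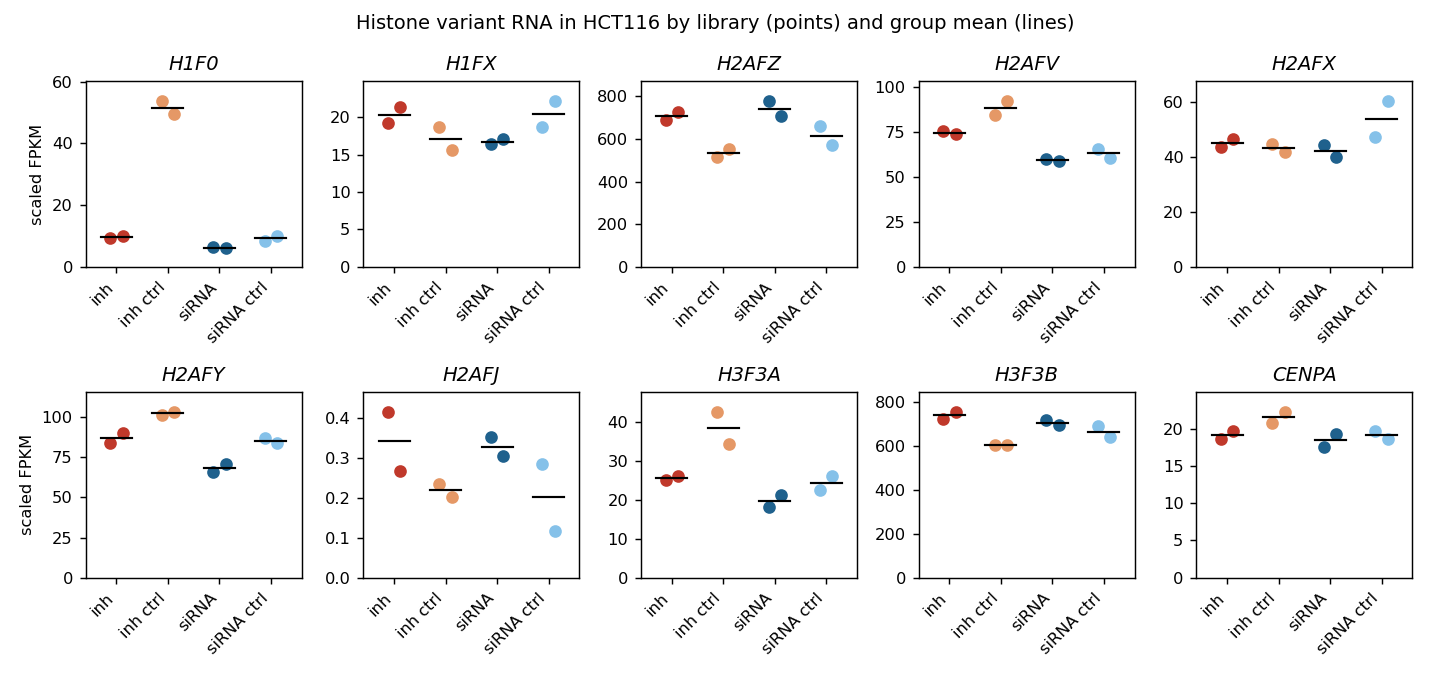
Scaled FPKM of each member (vertical axis from 0, its own scale in each panel) by group, with 1 point per library (n = 2) and a line at the group mean. H1F0 in the inhibitor controls lies at 49.5 and 53.8 FPKM, above all 6 other libraries, which reach at most 10.1 FPKM.

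H1F0 (chromosome 22, 38201114 to 38203442 in hg19), a gene without introns for the linker histone H1.0, had the widest range of the tested members relative to its level. It was at 9.45 and 9.93 FPKM with the inhibitor, against 53.8 and 49.5 FPKM in the inhibitor controls. The log2 fold change was -2.30 ± 0.09 (SE, adjusted p = 3.54e-06), with a ratio of group means of 0.188. The groups were far apart, and the gene ranked 3 by p among the 12846 tested. Against the siRNA controls, at 8.46 and 10.1 FPKM, the inhibitor libraries overlapped them (log2 fold change 0.06 ± 0.09, 95% interval -0.15 to 0.27, adjusted p = 0.826). The inhibitor controls exceeded the siRNA controls by a log2 difference of 2.36 ± 0.09 (adjusted p = 2.56e-06). In RNA from whole cultures, more cells that express a gene and more RNA per cell cannot be told apart.

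With the siRNA H1F0 was at 6.44 and 6.10 FPKM, below both siRNA controls, a log2 fold change of -0.49 ± 0.09 (adjusted p = 0.0396). That call is close to the threshold: it was kept in 4 of 16 alternative settings, and adjusted p lay between 0.0265 and 0.224 over them. Leaving out any library except siRNA control replicate 1 ended it, with a log2 fold change of -0.38 (adjusted p = 0.224) without siRNA control replicate 2, and the sign was the same in all 16. The inhibitor call held in all 15 settings tried, at adjusted p of up to 0.00204. The runs of a library differed by 0.293% to 9.77% of their mean. The Cufflinks intervals reached 3.91% to 19% of the value to either side, far less than the gap between inhibitor and inhibitor control libraries. Beside the smaller siRNA gap they were sizeable, at 13.8% to 19% in the siRNA runs and 9.05% to 16.4% in the siRNA control runs. The runs of the inhibitor controls gave 49.5 to 59.0 FPKM as deposited, and the other 12 runs at most 10.7 FPKM.

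**Figure D2:**
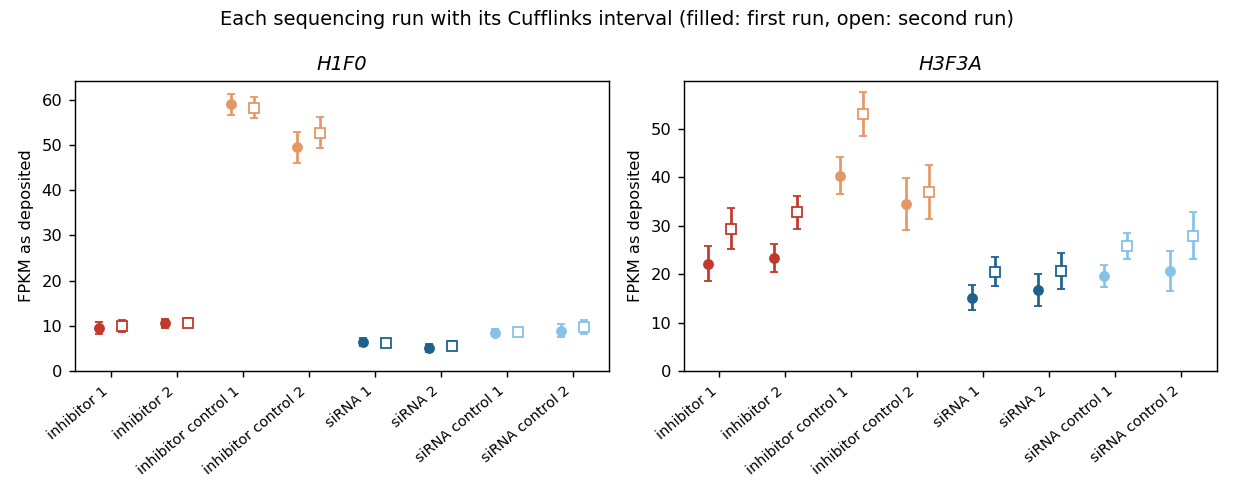
FPKM as deposited (vertical axis from 0) of H1F0 and H3F3A in each of the 16 sequencing runs, with the Cufflinks interval of the run as bars. Runs of one library lie side by side: for H1F0 they agree within 9.77% of their mean. For H3F3A the second run is the higher in all 8 libraries, as for 12.7% of 13034 entries averaging at least 1 FPKM.

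H1FX (chromosome 3, 129033615 to 129035120), the gene for the linker histone H1.10, also called H1X, did not follow H1F0. It was at 19.2 and 21.3 FPKM with the inhibitor, against 18.6 and 15.6 FPKM in the inhibitor controls. The inhibitor libraries were the higher, but the gene was not called (log2 fold change 0.24 ± 0.11, adjusted p = 0.111). With the siRNA it was at 16.4 and 17.1 FPKM, against 18.7 and 22.2 FPKM in the siRNA controls (log2 fold change -0.27 ± 0.11, adjusted p = 0.195). The inhibitor libraries overlapped the siRNA controls (-0.01 ± 0.11, 95% interval -0.25 to 0.23, adjusted p = 0.983). The difference between the inhibitor and siRNA effects, each against its own control, was 0.51 ± 0.15 on the log2 scale and not called (adjusted p = 0.0597). It passed only without inhibitor control replicate 1 (0.62, adjusted p = 0.0479) or without siRNA control replicate 1 (0.62, adjusted p = 0.0472).

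The replication-dependent linker histone genes give the setting for both. Of 5, HIST1H1C and HIST1H1E passed the filter, and both rose with the inhibitor against its own control. HIST1H1E was at 1102 and 1224 FPKM with the inhibitor, against 875.1 and 894.8 FPKM in the inhibitor controls (log2 fold change 0.39 ± 0.06, adjusted p = 0.00147). HIST1H1C was at 1218 and 1368 FPKM, against 1112 and 1079 FPKM (0.24 ± 0.07, adjusted p = 0.0197). Neither was called against the siRNA controls or with the siRNA, where HIST1H1E was at 1269 and 1288 FPKM, against 1162 and 1249 FPKM. HIST1H1A, HIST1H1B and HIST1H1D reached at most 0.263 FPKM in any library. H1F0 thus moved against these linker histone genes in the same pair of groups.

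H2A.Z is made by H2AFZ (chromosome 4, 100869243 to 100871545) and H2AFV (chromosome 7, 44866390 to 44887682), whose proteins differ in a few residues. Their coding sequences are shown because the reads have to tell the genes apart. Over 384 coding bases they are 80.5% identical, with 75 differing bases of which 64 are at the third position of a codon, and the longest stretch in common is 23 bases. The first 120 coding bases follow, from GENCODE transcripts, with differing bases in capitals.
H2AFZ: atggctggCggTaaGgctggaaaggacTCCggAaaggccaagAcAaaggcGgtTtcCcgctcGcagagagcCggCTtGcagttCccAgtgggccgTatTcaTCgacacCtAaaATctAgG
H2AFV: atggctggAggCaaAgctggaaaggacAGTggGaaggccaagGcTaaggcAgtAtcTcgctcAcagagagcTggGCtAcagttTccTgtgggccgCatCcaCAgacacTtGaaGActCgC

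The H2A.Z genes moved in opposite directions with the inhibitor against its own control. H2AFZ was at 689.9 and 728.4 FPKM with the inhibitor, against 515.6 and 552.8 FPKM in the inhibitor controls, with both inhibitor libraries above both controls (log2 fold change 0.41 ± 0.08, adjusted p = 0.00349). H2AFV was at 75.3 and 73.8 FPKM, against 84.7 and 92.3 FPKM, with both inhibitor libraries below (-0.24 ± 0.06, adjusted p = 0.014). The H2AFZ call held in all 15 settings. The H2AFV call held in 10 of 15, and ended without inhibitor replicate 1, inhibitor replicate 2 or inhibitor control replicate 2, where adjusted p lay at 0.0549, 0.0848 and 0.0905. H2AFV made up 9.8% and 9.2% of the summed FPKM of the pair with the inhibitor, against 14.1% and 14.3% in the inhibitor controls.

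Against the siRNA controls, where H2AFZ was at 658.8 and 573.3 FPKM and H2AFV at 65.8 and 60.6 FPKM, the inhibitor libraries were higher for both genes without passing the test. The log2 fold changes were 0.21 ± 0.08 for H2AFZ (adjusted p = 0.332) and 0.24 ± 0.06 for H2AFV (adjusted p = 0.203), so H2AFV had the other sign than against the inhibitor controls. The inhibitor controls were above the siRNA controls for H2AFV (0.48 ± 0.06, adjusted p = 0.000495) and below them for H2AFZ without a call (-0.20 ± 0.08, adjusted p = 0.0648). With the siRNA H2AFZ was at 778.4 and 706.8 FPKM, above both siRNA controls but not called (0.27 ± 0.08, adjusted p = 0.0956). It passed only without siRNA control replicate 1 (0.37, adjusted p = 0.0487). H2AFV was at 60.2 and 58.8 FPKM with the siRNA, a log2 fold change of -0.08 ± 0.06 (adjusted p = 0.47), and its share of the pair was 7.2% and 7.7% with the siRNA, against 9.1% and 9.6% in the siRNA controls.

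**Figure D3:**
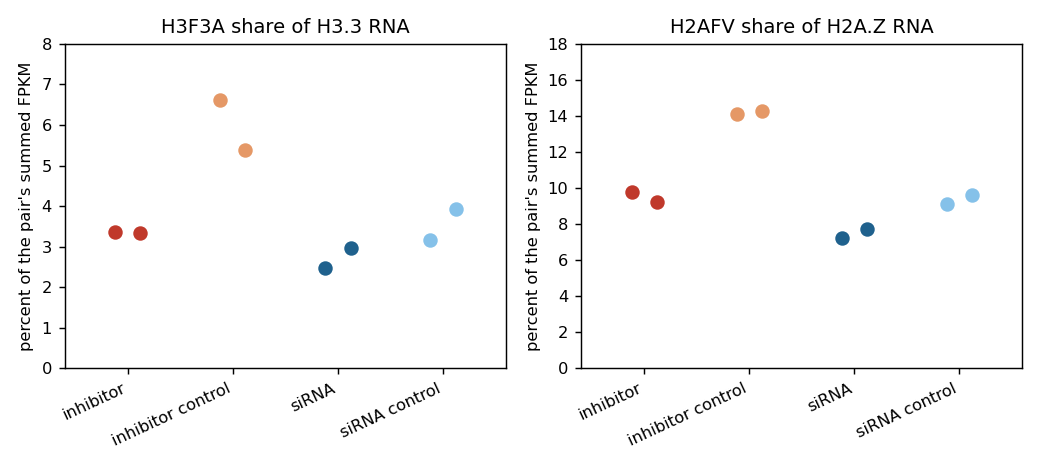
Share of each gene pair's summed FPKM, in percent (vertical axes from 0), taken by H3F3A (left) and H2AFV (right), 1 point per library (n = 2 per group). Both shares are highest in the inhibitor controls, at 5.39% and 6.62% for H3F3A and at 14.1% and 14.3% for H2AFV.

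H2AFX (chromosome 11, 118964564 to 118966177) encodes H2AX, which is phosphorylated around DNA breaks. Its gene is the member that also follows the replication-dependent pattern. The motif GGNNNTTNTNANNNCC, written for the histone stem-loop, was searched along whole transcripts on the transcript strand. It was found in the transcripts of H2AFX, 53 bases after the last coding base, and in those of no other member. The same letters occur anywhere in the transcripts of 6.43% of 19702 coding genes, so a match alone is a description. The site is shown with 5 bases to either side and the match in capitals.
H2AFX: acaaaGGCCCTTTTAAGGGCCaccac

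H2AFX was at 43.7 and 46.7 FPKM with the inhibitor, against 44.5 and 41.7 FPKM in the inhibitor controls, and the groups overlapped (log2 fold change 0.07 ± 0.11, 95% interval -0.17 to 0.30, adjusted p = 0.66). With the siRNA it was at 44.2 and 39.9 FPKM, against 47.3 and 60.3 FPKM in the siRNA controls, and was not called (-0.34 ± 0.11, adjusted p = 0.115). The higher siRNA control, replicate 2, set the size of that gap: without it the log2 fold change was -0.17 (adjusted p = 0.515), and without replicate 1 it was -0.51 (adjusted p = 0.0297). The inhibitor libraries lay below both siRNA controls without a call (-0.24 ± 0.11, adjusted p = 0.4). The inhibitor controls were below the siRNA controls by -0.30 ± 0.11 on the log2 scale (adjusted p = 0.0469), a call kept in 2 of 15 settings and lost without any library but siRNA control replicate 1. Without siRNA control replicate 2 it was -0.13 (adjusted p = 0.277).

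H2AFY (chromosome 5, 134669590 to 134735604) encodes macroH2A1, an H2A with a large extra domain found on silent chromatin. It was at 84.0 and 90.3 FPKM with the inhibitor, against 101.3 and 103.5 FPKM in the inhibitor controls, with both inhibitor libraries below (log2 fold change -0.23 ± 0.06, adjusted p = 0.0134). The inhibitor libraries overlapped the siRNA controls at 86.8 and 84.0 FPKM (0.03 ± 0.06, adjusted p = 0.876). With the siRNA it was at 65.6 and 70.7 FPKM, below both siRNA controls (-0.32 ± 0.06, adjusted p = 0.0363). H2AFY was therefore called lower with each treatment against its own control, but neither call was firm. The inhibitor call held in 10 of 15 settings and ended without inhibitor replicate 1 (-0.18, adjusted p = 0.106) or inhibitor control replicate 2 (-0.22, adjusted p = 0.0626). The siRNA call held in 2 of 16 and ended when any of the 8 libraries was left out, with adjusted p of 0.187 without siRNA control replicate 2, although the log2 fold change stayed between -0.38 and -0.27.

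H2AFY2, the gene for macroH2A2, was at 15.6 and 16.8 FPKM with the inhibitor, against 19.4 and 18.8 FPKM in the inhibitor controls (-0.23 ± 0.07, adjusted p = 0.0365), a call kept in 6 of 15 settings. H2AFY2 had a log2 fold change of 0.12 ± 0.07 against the siRNA controls (adjusted p = 0.532). With the siRNA it was at 14.1 and 13.2 FPKM, against 15.1 and 14.6 FPKM in the siRNA controls (-0.12 ± 0.07, adjusted p = 0.394). H2AFJ (chromosome 12, 14927270 to 14930936), whose product H2A.J is known from senescent cells, was at 0.416 and 0.268 FPKM with the inhibitor, 0.235 and 0.203 FPKM in the inhibitor controls, 0.352 and 0.304 FPKM with the siRNA and 0.286 and 0.118 FPKM in the siRNA controls. Its Cufflinks intervals reached 58.2% to 262% of the value to either side, so no difference was detectable at this depth. In a fit of all 32405 genes with a value above 0, it was not called for the inhibitor (adjusted p = 0.504) or the siRNA (adjusted p = 0.601). The further variant genes H1FOO, H1FNT and H2AFB3 were listed at 0 in every library, and H2AFB1 and H2AFB2 reached at most 0.189 FPKM.

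H3.3 is encoded identically by H3F3A (chromosome 1, 226249552 to 226259702) and H3F3B (chromosome 17, 73772515 to 73781974). The coding sequences of 408 bases differ at 88 bases, 77 of them at the third position of a codon, and share no stretch longer than 14 bases, so fragments of the genes are distinct from each other. The first 120 coding bases are shown with the differing bases in capitals.
H3F3A: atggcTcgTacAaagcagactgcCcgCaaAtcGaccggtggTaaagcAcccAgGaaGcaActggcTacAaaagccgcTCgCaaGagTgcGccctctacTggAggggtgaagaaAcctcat
H3F3B: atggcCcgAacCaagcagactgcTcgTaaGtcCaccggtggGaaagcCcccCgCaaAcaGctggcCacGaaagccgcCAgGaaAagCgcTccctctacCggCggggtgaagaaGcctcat

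The H3.3 genes, too, moved in opposite directions with the inhibitor against its own control. H3F3A was at 25.1 and 26.1 FPKM with the inhibitor, against 42.8 and 34.5 FPKM in the inhibitor controls (log2 fold change -0.57 ± 0.12, adjusted p = 0.00502), and both inhibitor libraries lay below. H3F3B was at 723.5 and 757.1 FPKM, against 603.5 and 606.4 FPKM (0.29 ± 0.05, adjusted p = 0.00285), and both lay above. Each call held in 14 of 15 settings. H3F3A made up 3.35% and 3.33% of the pair's summed FPKM with the inhibitor, against 6.62% and 5.39% in the inhibitor controls. H3F3B thus made up nearly all of the pair's listed FPKM in every library. These shares may understate H3F3A, whose level is uncertain for the reason given below.

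Against the siRNA controls, at 22.5 and 26.2 FPKM, H3F3A in the inhibitor libraries overlapped them (0.07 ± 0.12, adjusted p = 0.843), and H3F3B, at 690.2 and 640.5 FPKM in the siRNA controls, was higher in the inhibitor libraries but not called (0.15 ± 0.05, adjusted p = 0.298). The inhibitor controls exceeded the siRNA controls for H3F3A (0.64 ± 0.12, adjusted p = 0.00262). With the siRNA H3F3A was at 18.2 and 21.3 FPKM, below both siRNA controls and not called (-0.29 ± 0.12, adjusted p = 0.196), and H3F3B was at 720.3 and 694.7 FPKM, above both (0.09 ± 0.05, adjusted p = 0.371).

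The H3F3A level is uncertain because near-identical copies exist. The processed pseudogene H3F3AP4 (chromosome 2) has a transcript of 411 bases that is identical over its whole length to H3F3A, and H3F3AP6 (chromosome 4) shares 198 bases in a row. These pseudogenes were listed at 2.74 to 7.55 and 0.765 to 2.48 FPKM, and the sources used here do not say how such fragments were divided. H3F3A was also the tested member with the largest median gap between runs. Its second run was higher in all 8 libraries, by 7.12% to 33.7% of the mean of the runs (median 27.8%). For H2AFZ and H3F3B the second run was also higher in all 8 libraries, by at most 8.72% and 10.7%. The same held for 12.7% of 13034 entries with a mean of at least 1 FPKM. An absolute median gap of at least 20% was found in 12.4% of these entries. For inhibitor control replicate 1 the H3F3A runs gave 40.3 and 53.0 FPKM, further apart than their Cufflinks intervals. The H3F3A call for the inhibitor held on either run alone. Of 12 pseudogene entries of H3F3A, H3F3B and H2AFZ, 5 reached 1 FPKM in a library, and H2AFZP3, the highest for H2AFZ at 2.97 to 5.71 FPKM, shares at most 91 bases in a row with it. H3F3C, an H3.3-like gene sharing up to 107 bases with H3F3B, was at 3.38 and 3.27 FPKM with the inhibitor, against 2.07 and 2.17 FPKM in the inhibitor controls (0.47 ± 0.15, adjusted p = 0.0385), a call kept in 7 of 15 settings. H3F3C had a log2 fold change of -0.11 ± 0.15 against the siRNA controls, which were at 3.01 and 4.40 FPKM (adjusted p = 0.823).

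CENPA (chromosome 2, 26987157 to 27023935), the centromeric H3 variant, was at 18.6 and 19.7 FPKM with the inhibitor, against 20.8 and 22.3 FPKM in the inhibitor controls, lower in both libraries but not called (log2 fold change -0.16 ± 0.08, 95% interval -0.33 to 0.005, adjusted p = 0.119). With the siRNA it was at 17.6 and 19.3 FPKM, against 19.7 and 18.6 FPKM in the siRNA controls, and the groups overlapped (-0.05 ± 0.08, 95% interval -0.22 to 0.12, adjusted p = 0.75). The inhibitor libraries also overlapped the siRNA controls (95% interval -0.17 to 0.17, adjusted p = 0.995). It was called in none of the 4 pairs of groups under any alternative run. Its locus overlaps SLC35F6, at 13.4 to 24.7 FPKM as deposited, and that of H3F3B overlaps UNK, at 8.24 to 11.8 FPKM. The sources used here do not say how fragments in such overlaps were divided, or whether the counting used the strand that the kit keeps. CENPA in particular is therefore uncertain.

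Set side by side, 6 of 9 tested members were called with the inhibitor against its own control, H1F0, H3F3A, H2AFV and H2AFY lower and H2AFZ and H3F3B higher, where 36.5% of all genes tested were called, 17.7% higher and 18.7% lower. The median log2 fold change was -0.16 over the members and 0.01 over all genes. With the siRNA 2 of 9 were called, H1F0 and H2AFY, both lower, where 2.13% of all genes were called, 0.802% higher and 1.32% lower, and the medians were -0.27 and -0.01. For the inhibitor against the siRNA controls 0 of 9 were called by limma, where 0.0389% of all genes, or 5, were (0.0311% higher and 0.00778% lower), and 4 members had an unadjusted p under 0.05, as had 12.4% of all genes. Between the controls 5 of 9 were called, H1F0, H2AFV, H2AFY and H3F3A higher and H2AFX lower in the inhibitor controls, where 38.3% of all genes were, 19% higher and 19.2% lower. For the inhibitor effect minus the siRNA effect 1 of 9 was called, H1F0, with a log2 difference of -1.81 ± 0.13 (adjusted p = 0.000297), where 11.8% of all genes were called, 5.16% higher and 6.67% lower. Groups that do not overlap are common at n = 2: they made up 71.5%, 49.7%, 45.9% and 69.6% of all genes in these 4 comparisons. The inhibitor comparison, that between the controls and the one against the siRNA controls share libraries, so their counts are not separate evidence.

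The split of all called genes between higher and lower depends on scaling. With the inhibitor 48.6% of called genes were higher, and 34.8% with FPKM as deposited. With the siRNA the share was 37.7%, and 14.9% as deposited or 49.1% after quantile normalization, and between the controls 49.7% and 82% as deposited. The deposited scale shifts the median of all genes by 0.11 (log2) in the last of these comparisons. No called member changed sign under any scaling. With FPKM as deposited 3 members were called with the inhibitor, H1F0, H2AFZ and H3F3A, and only H1F0 with the siRNA. Testing all genes without the filter on low values left H1F0, H2AFZ and H3F3B with the inhibitor and 0 members with the siRNA.

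**Figure D4:**
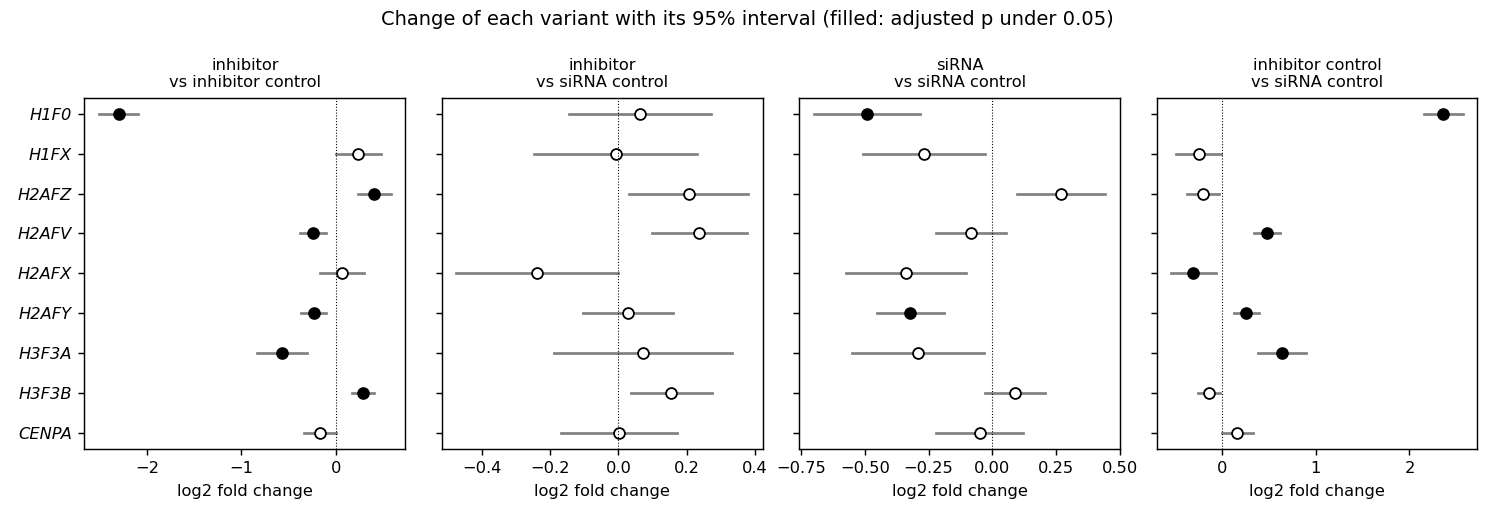
Log2 fold change of each tested member (horizontal axis, its own scale in each panel) with the 95% interval from limma, in 4 pairs of groups of 2 libraries. Filled points have an adjusted p under 0.05: 6 for the inhibitor against its control, 0 against the siRNA controls, 2 for the siRNA and 5 between the controls.

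Since H2AFZ and H3F3B both rose with the inhibitor against its own control while H2AFV fell, their promoters are shown, taken from RefSeq for GRCh38.p14, 300 bases each around the start of transcription, most of them before it. They are printed on the gene's strand. Of the 10 members 9 had an entry, and H1F0 is named only. Capitals mark CCAAT on either strand (ATTGG on the other) and TATAAA on the gene's strand, which nowhere overlap. The regions are chr4:99950226-99950525, chr17:75779730-75780029 and chr7:44848038-44848337, all on the minus strand.
H2AFZ: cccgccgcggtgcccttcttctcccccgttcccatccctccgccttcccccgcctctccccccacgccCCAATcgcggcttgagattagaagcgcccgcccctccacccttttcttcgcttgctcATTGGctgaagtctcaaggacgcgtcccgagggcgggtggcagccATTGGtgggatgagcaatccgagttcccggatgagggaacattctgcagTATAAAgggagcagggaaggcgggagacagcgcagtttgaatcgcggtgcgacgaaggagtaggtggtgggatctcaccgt
H3F3B: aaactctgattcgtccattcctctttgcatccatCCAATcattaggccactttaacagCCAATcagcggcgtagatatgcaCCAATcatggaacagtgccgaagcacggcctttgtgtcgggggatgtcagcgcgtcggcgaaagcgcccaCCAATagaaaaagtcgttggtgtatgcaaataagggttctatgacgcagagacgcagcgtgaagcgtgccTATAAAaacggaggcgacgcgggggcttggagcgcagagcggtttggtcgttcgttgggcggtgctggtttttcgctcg
H2AFV: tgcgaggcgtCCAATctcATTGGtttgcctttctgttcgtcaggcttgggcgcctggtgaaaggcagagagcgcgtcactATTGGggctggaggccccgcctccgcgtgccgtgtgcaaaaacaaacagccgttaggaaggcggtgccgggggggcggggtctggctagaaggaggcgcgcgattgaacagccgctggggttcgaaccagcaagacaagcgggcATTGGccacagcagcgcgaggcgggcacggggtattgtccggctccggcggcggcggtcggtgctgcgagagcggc

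CCAAT occurred 3 times in the H2AFZ promoter and 4 times in each of those of H3F3B and H2AFV, and at least once in 34.6% of 35116 RefSeq promoters. TATAAA occurred once in H2AFZ and once in H3F3B and not in H2AFV, and in 7.33% of promoters. It was also found for H1FX and H2AFX. Against the inhibitor controls, the log2 fold changes of the tested members with TATAAA were 0.41 for H2AFZ, 0.29 for H3F3B, 0.24 for H1FX and 0.07 for H2AFX, the last pair not called. Those of the tested members with an entry but no TATAAA were -0.24 for H2AFV, -0.23 for H2AFY, -0.57 for H3F3A and -0.16 for CENPA, of which CENPA was not called. H2AFJ, also without TATAAA, went the other way, at 0.14 in the limma fit without the filter (adjusted p = 0.504). This split by sign covers only the tested members, was seen after the values and was not tested. Against the siRNA controls it was not there, with -0.24 for H2AFX and 0.24 for H2AFV. CCAAT was found besides for H2AFX, H2AFJ and CENPA, in 3 of 4 entries for H3F3A and in 1 of 2 for H2AFY, but not for H1FX.

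Genes that load, exchange or read the variants were followed as lists. With the inhibitor against its own control, 8 of 9 general histone chaperones fell and 0 rose, with a median log2 fold change of -0.45 against 0.01 over all genes, where 18.7% of all genes were called lower. SSRP1, a subunit of the nucleosome chaperone FACT, was at 79.5 and 80.6 FPKM with the inhibitor, against 121.4 and 118.8 FPKM in the inhibitor controls (-0.58 ± 0.05, adjusted p = 6.39e-05). NASP, which holds histones H3 and H1 in reserve, was at 66.4 and 65.3 FPKM, against 130.5 and 117.8 FPKM (-0.90 ± 0.08, adjusted p = 8.94e-05). NAP1L1 (-0.60 ± 0.07) and SUPT16H, the other subunit of FACT (-0.42 ± 0.05), fell as well. Between 6 and 8 of the list were called lower under the 15 alternatives. Against the siRNA controls 0 of 9 were called and 0 had an unadjusted p under 0.05, where 12.4% of all genes had. The median was 0.08.

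The same list held the called partner genes of the siRNA comparison. There 3 of 9 fell, where 1.32% of all genes were called lower, with a median of -0.26 against -0.01 over all genes. CHAF1A, a subunit of the replication-coupled assembly factor CAF-1, was at 12.8 and 13.6 FPKM with the siRNA, against 18.4 and 22.6 FPKM in the siRNA controls (-0.59 ± 0.09, adjusted p = 0.0253). SSRP1 was at 62.7 and 64.8 FPKM, against 77.6 and 79.7 FPKM (-0.30 ± 0.05, adjusted p = 0.0266), and NASP at 41.3 and 47.9 FPKM, against 61.6 and 57.4 FPKM (-0.41 ± 0.08, adjusted p = 0.0414). All 3 were below both controls, and their calls were kept in 7, 5 and 3 of 15 alternatives, with 0 of the list called in some. NAP1L1 had a log2 fold change of -0.26 ± 0.07 (adjusted p = 0.0935).

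Of 8 H3.3 chaperone genes, 3 fell and 1 rose with the inhibitor against its own control (median -0.13), where 18.7% of all genes fell and 17.7% rose. Under the 15 alternatives 2 to 3 fell. HIRA, the H3.3 chaperone of active genes, was at 6.11 and 5.83 FPKM with the inhibitor, against 9.65 and 10.9 FPKM in the inhibitor controls (-0.69 ± 0.10, adjusted p = 0.000964). ATRX, which works with DAXX at silent repeats, was at 6.68 and 6.57 FPKM, against 11.7 and 11.9 FPKM (-0.75 ± 0.15, adjusted p = 0.00403), and ASF1B fell by 0.21 on the log2 scale (adjusted p = 0.0467, kept in 4 of 15 alternatives). ASF1A, a chaperone of H3 and H4, was at 17.8 and 18.9 FPKM, against 12.9 and 13.5 FPKM (0.44 ± 0.07, adjusted p = 0.00136). With the siRNA 0 of 8 were called by limma, and 0 had an unadjusted p under 0.05, where 20.8% of all genes had.

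Of 12 genes of H2A.Z exchange, 11 were tested, and 6 rose and 3 fell with the inhibitor against its own control (median 0.14), where 17.7% of all genes rose and 18.7% fell. These counts depend on the setting: under the 15 alternatives 2 to 6 rose and 2 to 4 fell. ANP32E, which removes H2A.Z, was at 26.5 and 26.1 FPKM with the inhibitor, against 48.7 and 48.0 FPKM in the inhibitor controls (-0.85 ± 0.10, adjusted p = 0.000451). DMAP1, a subunit of the depositing complexes, was at 2.60 and 2.76 FPKM, against 8.00 and 5.85 FPKM (-1.09 ± 0.14, adjusted p = 0.000529). YEATS4 (0.57 ± 0.09, adjusted p = 0.00139) and ACTR6 (0.53 ± 0.09, adjusted p = 0.00176), subunits of the same group of complexes, rose. With the siRNA 0 of 11 were called by limma and 1 had an unadjusted p under 0.05, as had 20.8% of all genes. It was DMAP1, at 1.90 and 1.81 FPKM with the siRNA, against 2.85 and 2.83 FPKM in the siRNA controls (adjusted p = 0.13).

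Of 6 CENPA loading and reading genes, 2 rose and 0 fell with the inhibitor against its own control (median 0.17), where 36.5% of all genes were called and 17.7% rose, so the count is near the background. They were OIP5, a Mis18 complex subunit, at 24.5 and 26.7 FPKM with the inhibitor, against 18.01 and 19.2 FPKM in the inhibitor controls (0.44 ± 0.08, adjusted p = 0.00211), and CENPN, which binds CENP-A nucleosomes, at 53.7 and 61.3 FPKM, against 45.2 and 49.3 FPKM (0.28 ± 0.08, adjusted p = 0.0267, kept in 10 of 15 alternatives). With the siRNA 0 of 6 were called by limma and 2 had an unadjusted p under 0.05, as had 20.8% of all genes. HJURP, the CENP-A chaperone, was at 26.2 and 25.8 FPKM with the siRNA, against 31.2 and 30.7 FPKM in the siRNA controls (adjusted p = 0.0627).

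Of 12 genes that phosphorylate or read H2AX, 11 were tested, and 6 fell and 1 rose with the inhibitor against its own control (median -0.27), where 18.7% of all genes fell and 17.7% rose. Under the 15 alternatives 3 to 6 fell and 0 to 2 rose. MDC1, the reader of phosphorylated H2AX, was at 4.93 and 4.38 FPKM with the inhibitor, against 13.5 and 10.8 FPKM in the inhibitor controls (-1.21 ± 0.15, adjusted p = 0.000507). PRKDC, a kinase for H2AX, was at 40.6 and 39.4 FPKM, against 57.2 and 53.9 FPKM (-0.46 ± 0.06, adjusted p = 0.000619). BAZ1B (-0.31 ± 0.06, adjusted p = 0.00335) and TP53BP1 (-0.35 ± 0.08, adjusted p = 0.01) fell too. With the siRNA 0 of 11 were called by limma and 4 had an unadjusted p under 0.05, as had 20.8% of all genes. In none of these 5 lists was a gene called for the inhibitor against the siRNA controls.

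**Figure D5:**
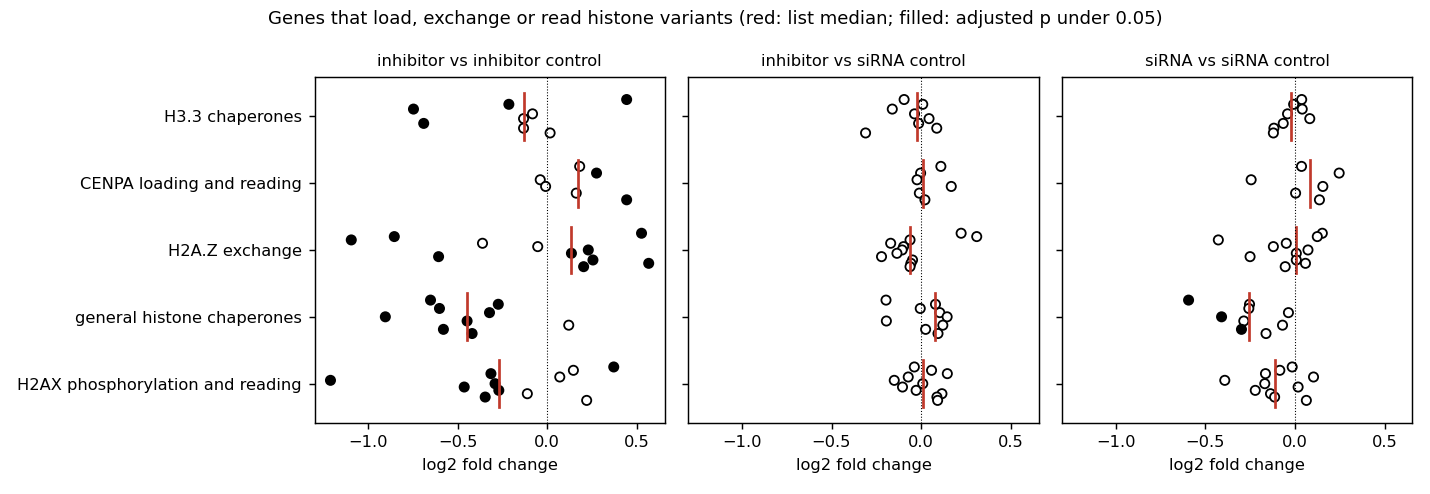
Log2 fold change (horizontal axis, shared scale) of each tested gene in 5 lists of variant chaperones, exchange factors and readers, 1 point per gene, with the list median in red. Filled points have an adjusted p under 0.05: of the 45 genes tested, 30 were called for the inhibitor against its own control (36.5% of all genes), 0 against the siRNA controls (0.0389% of all genes) and 3, all general chaperones, for the siRNA (2.13% of all genes).

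Across the 8 libraries the members fell into patterns. How far these rest on the gap between the inhibitor controls and the other libraries was not tested. Pearson's r of log2 levels was 0.94 between H1F0 and H3F3A, 0.938 between H2AFZ and H3F3B, and -0.881 between H2AFZ and H3F3A, as a description over 8 libraries from 4 groups. The inhibitor controls lay outside the range of the other 6 libraries for H1F0, H2AFV, H2AFY, H3F3A and CENPA, above it, and for H2AFZ and H3F3B, below it. For H1FX, H2AFX and H2AFJ they did not. The share of all genes with such a gap was not computed, so it is no trait of the members. Over all genes tested, the inhibitor controls did not overlap the inhibitor libraries in 71.5% and the siRNA controls in 69.6%. Among all other tested genes, the 5 most like H1F0 over the 8 libraries were PSMD2, a proteasome subunit (r = 0.9996), HADH, an enzyme of fatty acid oxidation (0.9971), HSPB1, a small heat shock protein (0.9969), CTCF, a DNA-binding protein that shapes chromosome loops (0.9967), and SLC25A6, a mitochondrial nucleotide carrier (0.9967). CTCF was at 14.7 and 14.9 FPKM with the inhibitor, 24.9 and 25.9 FPKM in the inhibitor controls, 13.5 and 13.3 FPKM with the siRNA and 14.5 and 15.5 FPKM in the siRNA controls. These r are shared widely, with 69 genes above 0.99 and 808 above 0.95 of 12846.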

How the data were processed

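Total RNA libraries (TruSeq Stranded Total RNA kit, HiSeq-2000, per the labels' protocols) gave the authors' deposited gene-level FPKM with confidence bounds from Cufflinks, per the file headers. The submitters' processing notes name STAR 2.3.0e, SAMtools 0.1.19, Cufflinks (no version) and build hg19. The sources used here give neither the annotation nor Cufflinks options nor any use of strand. FPKM share a library total, so abundant RNAs shift all other genes.

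The files hold no counts. From genes whose interval implies a single fragment, depth lay between 0.298 and 1.02 of that in siRNA control replicate 1, run 1. These intervals cover counting error only.

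Runs were averaged per library. Each file has 63784 entries, of which 131 repeat an identifier and were summed. A gene was tested if its FPKM averaged 1 or more over the 8 libraries and its locus spanned 300 bases or more, and 1 gene that Cufflinks marked as unreliable in all runs was left out. Scaling used median-of-ratios factors, from 0.878 to 1.09. limma 3.58.1 in R 4.3.3 fitted log2(FPKM + 1), with a trend, to 4 groups in 1 fit (4 residual and 5.04 prior degrees of freedom), two-sided, with Benjamini-Hochberg adjustment over 12846 genes. Fold changes are on this scale, which understates low genes. The fit was tested on simulated data. Alternatives were a replicate block, a pseudocount of 0.1, no filter, deposited or quantile scaling, single runs and leaving out each library, and, added after seeing the data, leaving out the inhibitor control group. Replicate numbers were not taken to pair the libraries across groups in the main fit. Sequences came from GENCODE and RefSeq tables. From each list, the 4 genes with the smallest p were named in the report where a call was made, with any others chosen after their values were seen. Members, lists and tests were chosen with earlier results of these data known.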

Additional observations from a re-analysis of the deposited data

Results flagged for a closer look

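The treatment effects on H1F0 differed from each other. The inhibitor effect minus the siRNA effect was -1.81 on the log2 scale (SE 0.13, 95% interval -2.10 to -1.51, limma interaction term, adjusted p = 0.000297), from -2.30 with the inhibitor and -0.49 with the siRNA, each against its own control. H1F0 was the only one of 9 tested members called for this difference, where 11.8% of all genes were. The difference held in all 15 alternatives, between -1.92 and -1.70. The inhibitor controls, which enter it, were at 53.8 and 49.5 FPKM, and the siRNA controls at 8.46 and 10.1 FPKM, and whether the controls set it was not tested. The inhibitor libraries, at 9.45 and 9.93 FPKM, lay within the range of the siRNA controls.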

How the results depend on the processing

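Of 693 member values under alternatives, 633 kept their side of the threshold, 52 lost a call, 8 gained one and 0 called values changed sign. Without the low-value filter, genes called were 2986 (inhibitor), 5 (siRNA), 0 (inhibitor against siRNA controls), 3236 (between controls) and 245 (difference of effects), with 3 and 0 members for the inhibitor and the siRNA. With FPKM as deposited they were 3112, 134, 32 and 738 for the inhibitor, the siRNA, the inhibitor against siRNA controls and the difference, with 3 and 1 members for the first 2. The first runs alone gave 3117, 31, 1, 3212 and 526 genes in the order first used, and 0 members for the siRNA. The second runs alone gave 45, 2 and 717 genes for the siRNA, the inhibitor against siRNA controls and the difference, with 0 members for the siRNA and 3 between controls. Added after seeing the data, leaving out the inhibitor control group gave 132 genes and 0 members for the siRNA and 11 genes for the inhibitor against siRNA controls. The cause was not tested. A replicate block gave 68 genes and 0 members for the siRNA (adjusted p = 0.0666 for H1F0 and 0.0604 for H2AFY). Same-numbered libraries deviated with correlations of -0.098 to 0.048. With 2 libraries per group, such values cannot show whether the numbers mark a shared source. With each library left out in turn, genes called ranged from 2668 to 4770 (inhibitor), 8 to 424 (siRNA), 0 to 44 (inhibitor against siRNA controls), 3439 to 4846 (between controls) and 488 to 1461 (difference), and members from 4 to 6, 0 to 3, 0 to 0, 4 to 6 and 1 to 3. Where this leaves 1 library in a group, it is assumed to vary like the others. Depth limits H2AFJ most.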

Other observations

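Proliferation genes gave no single direction: of 12, 3 rose and 3 fell with the inhibitor against its own control (median log2 fold change -0.05), close to the 17.7% of all genes that rose and the 18.7% that fell. Under the 15 alternatives 2 to 4 rose and 2 to 3 fell. PLK1, a mitotic kinase, was at 23.0 and 20.99 FPKM with the inhibitor, against 41.7 and 44.0 FPKM in the inhibitor controls (limma log2 fold change -0.93 ± 0.09 SE, adjusted p = 0.000177), and MKI67 was at 11.9 and 11.8 FPKM, against 31.5 and 28.4 FPKM (-1.27 ± 0.19, adjusted p = 0.00118). CDK1 was at 137.3 and 137.9 FPKM, against 89.9 and 89.7 FPKM (0.61 ± 0.06, adjusted p = 2e-04), and CCNA2 at 68.6 and 70.5 FPKM, against 47.7 and 49.1 FPKM (0.51 ± 0.06, adjusted p = 0.000317). For the inhibitor set against the siRNA controls 0 of 12 were called by limma. The log2 fold changes were -0.05 for PLK1 (adjusted p = 0.869), -0.26 for MKI67 (0.601), 0.19 for CDK1 (0.295) and 0.24 for CCNA2 (0.196). Of the 12, 4 had an unadjusted p under 0.05, as had 12.4% of all genes. With the siRNA 0 of 12 were called by limma and 3 had an unadjusted p under 0.05, as had 20.8% of all genes. EHMT1 was at 10.9 and 12.4 FPKM with the inhibitor, against 25.5 and 24.0 FPKM in the inhibitor controls (-1.03 ± 0.12, adjusted p = 0.000353). EHMT1 was not called for the inhibitor set against the siRNA controls (-0.24 ± 0.12, adjusted p = 0.446). It was at 9.09 and 10.2 FPKM with the siRNA, against 12.2 and 15.8 FPKM in the siRNA controls (-0.49 ± 0.12, adjusted p = 0.0677).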
